A study of Homo sapiens with 6 samples.

Results

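The 100 rows described here encode the mitochondrial respiratory chain and the ATP synthase. They were picked by patterns of gene symbols, which were set with earlier results of these data known. Of the 57781 rows of the count table, 160 matched the symbol patterns of these subunits and 60 pseudogenes among them were left out. The members are 13 mRNAs and 2 ribosomal RNAs encoded by mitochondrial DNA (MT- symbols) and 85 nuclear rows, which fall into complex I with 37, complex II with 4, complex III with 9, complex IV with 14 and complex V with 21.

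The respiratory chain passes electrons from NADH and succinate to oxygen and pumps protons across the inner mitochondrial membrane, and the ATP synthase (complex V) uses the proton gradient to make ATP. Complexes I, III, IV and V are mosaics of subunits encoded by mitochondrial DNA, transcribed inside the organelle as long polycistronic RNAs, and of subunits encoded by nuclear genes and imported, whereas complex II is wholly nuclear encoded. METTL3 is the catalytic subunit of the writer complex that places N6-methyladenosine (m6A) on mRNA made in the nucleus.

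The libraries came from A549, a long-established cell line of human lung adenocarcinoma: 3 carried an empty vector (genotype label WT) and 3 a short hairpin RNA that lowers METTL3 (shMETTL3). The study's methods name a plasmid for its hairpins, the sequences of the METTL3 hairpins are not given in the sources used here, and the sample titles number these libraries as replicates while the count columns read sh1 to sh3, so whether they carry 1 hairpin or several is not known. Nothing in the labels says that the libraries of a group came from separate cultures, so p-values measure the spread between these libraries, which may be technical. RNA was taken from whole cultures, in which fewer cells of a type and less RNA per cell cannot be told apart.

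METTL3 stood at 49.4, 50.6 and 49.5 CPM (counts scaled to the library's total) in vector and at 18.9, 19.9 and 19.3 CPM in shMETTL3, 38.8% of the vector mean. Its log2 fold change of shMETTL3 against vector was -1.36 ± 0.0673 (SE; adjusted p = 4.57e-16, edgeR's quasi-likelihood test), and an exact permutation test (two-sided) reached p = 0.1, which is as low as 3 against 3 libraries can go. Library totals ran from 14931426 to 19108928 counts, and CPM are scaled by edgeR's TMM factors, which lay between 0.920 and 0.953 for vector and between 1.05 and 1.07 for shMETTL3. Without these factors, on library size alone, the median log2 fold change over the 15125 genes tested went from 0.0022 to 0.18 and the share of calls that were higher from 50.6% to 65.8%. Over all genes tested, 32.9% were lower in shMETTL3 and 33.7% higher, and the marker counts that follow stand beside these shares. All 8 A549 and epithelial markers were detected, and 7 of them were lower in shMETTL3, among them the keratins KRT8 and KRT18 and the adhesion molecule EPCAM. Of 7 rows of markers of T cells, macrophages, fibroblasts, leukocytes and endothelium, 6 had too few counts to test, and the fibroblast collagen COL1A1 went from 5.64 to 10.5 CPM. Of 7 alveolar type II markers, 4 were tested, 2 lower and 1 higher, and the surfactant gene SFTPD went from 3.83 to 0.391 CPM while SFTPB stood at 0.0961 and 0.854 CPM. The part of these shifts in the results below was not tested.

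Transcripts of the respiratory chain were lower in shMETTL3 cells. Of the 100 members, 94 had enough counts to test, and 82 of them changed (edgeR, adjusted p under 0.05 after Benjamini and Hochberg), 76 lower and 6 higher. Over all 15125 genes, 66.6% changed, 32.9% lower and 33.7% higher, and among the 5253 genes with an average log2 CPM of at least 5 the share lower was 42.2%. Of the 60 nuclear members above that level, 50 were lower. The sizes were small: the median log2 fold change of the 94 members was -0.39, or 76.3% of the vector level, against 0.0022 for all genes, and a single member fell by more than 1 on the log2 scale. In 75 members every shMETTL3 library lay below every vector library, and in 5 every one lay above. Complete separation was seen downward in 34.3% and upward in 35.2% of all genes tested. With library size alone as the scaling, 59 members were lower and 9 higher, beside 23.2% lower and 44.6% higher of all genes. The number of members higher rested in part on shMETTL3 replicate 3, without which it was 3.

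**Figure D1:**
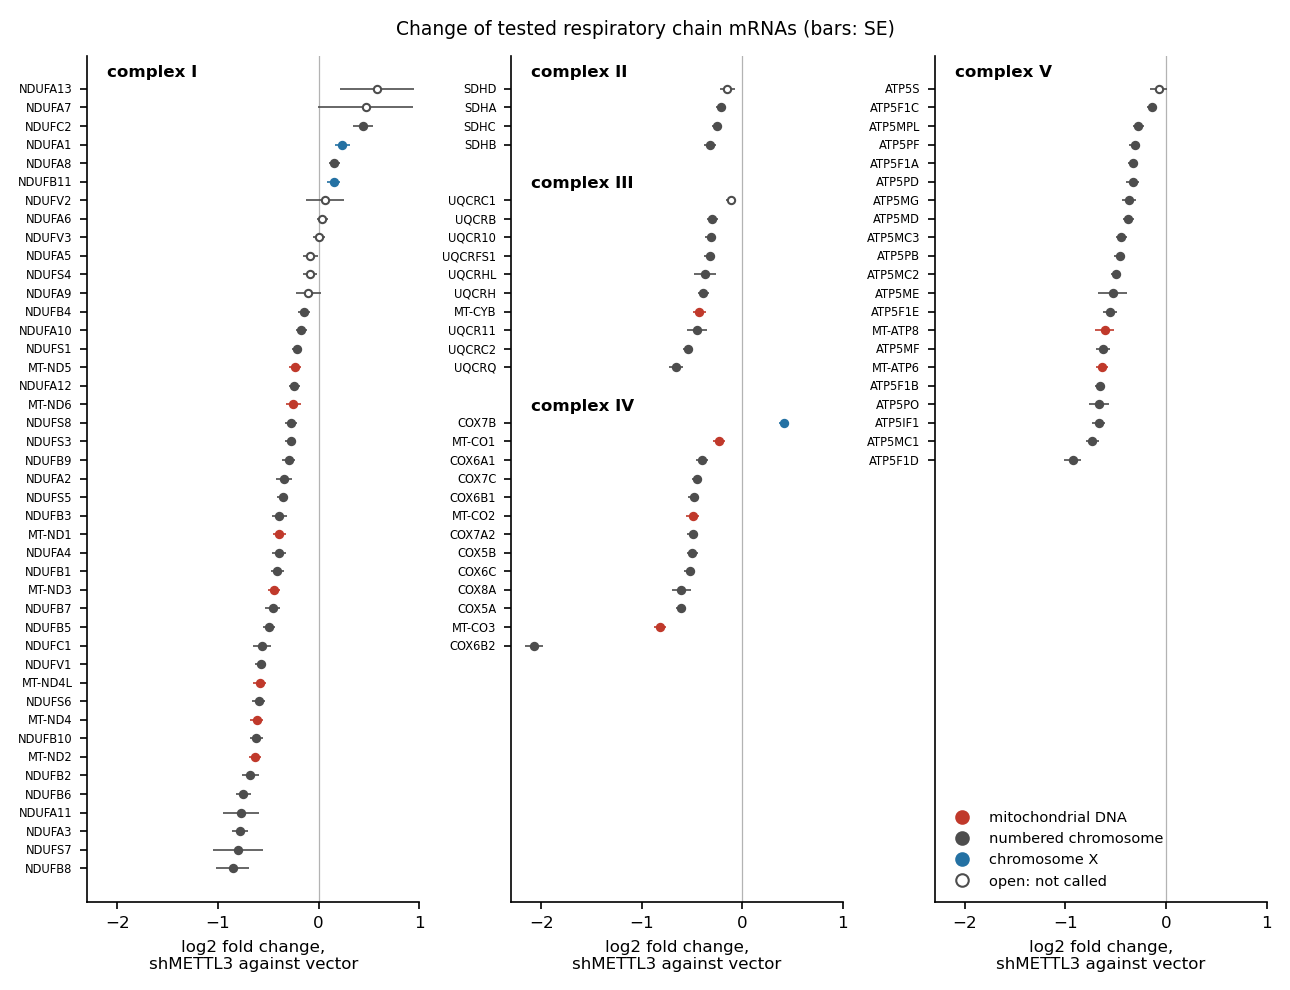
Log2 fold change of shMETTL3 against vector (x axis) for the tested mRNA members (y axis) in complexes I to V, all but 1 of them shown, with bars for 1 SE. Filled points passed the adjusted p of 0.05 and open points did not. Of the points right of 0 that are filled, COX7B, NDUFA1 and NDUFB11 lie on chromosome X, and COX6B2 alone lies left of -1.

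All 13 mRNAs encoded by mitochondrial DNA fell, by a median of 0.49 on the log2 scale. The values of the steepest, MT-CO3, a core subunit of cytochrome c oxidase (complex IV), were 19128, 19341 and 22462 CPM in vector and 11040, 12116 and 11427 CPM in shMETTL3. The groups did not overlap, and the log2 fold change was -0.82 ± 0.0578 (SE; adjusted p = 1.15e-12). MT-CO1, the catalytic subunit of the same enzyme and the most abundant of the 13 by CPM, stood at 38141, 32321 and 38428 CPM in vector and 32047, 32024 and 28880 CPM in shMETTL3. Vector replicate 2 lay just above the highest shMETTL3 library, and the change was the smallest of the 13 at -0.23 ± 0.0597 (adjusted p = 0.00146). MT-CO2, which takes electrons from cytochrome c, lay between them at -0.49.

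Among the complex I subunits of mitochondrial DNA, MT-ND2 stood at 9546, 9798 and 11450 CPM in vector and 6276, 7065 and 6492 CPM in shMETTL3, a log2 fold change of -0.63. MT-ND4 changed by -0.62, MT-ND4L by -0.59, MT-ND3 by -0.44 and MT-ND1 by -0.39, each with no overlap between groups. MT-ND5 and MT-ND6 moved least. MT-ND6, whose gene is the only member mRNA on the opposite strand of the mitochondrial genome, had 1275, 1405 and 1673 CPM in vector and 1113, 1319 and 1229 CPM in shMETTL3, so that the groups overlapped, with a log2 fold change of -0.25 ± 0.0707 (adjusted p = 0.00295, or 0.0953 by DESeq2), which was -0.14 without vector replicate 3 and still passed. Under scaling by library size alone MT-ND5, MT-ND6 and MT-CO1 kept their direction but no longer passed, at -0.057, -0.074 and -0.053. MT-CYB, the only mitochondrially encoded subunit of complex III, changed by -0.43. MT-ATP6 and MT-ATP8, which form part of the proton channel and stalk of the ATP synthase, changed by -0.64 and -0.61, and their genes share bases, so reads of the shared stretch cannot be assigned to either.

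The ribosomal RNAs of the mitochondrion did not follow the mRNAs. MT-RNR1, the RNA of the small ribosomal subunit, rose from 2030, 2153 and 2351 CPM to 3353, 3470 and 3459 CPM, a log2 fold change of 0.65 ± 0.0534 (SE; adjusted p = 2.32e-11) with no overlap. MT-RNR2, the RNA of the large subunit, had 38635, 38864 and 42635 CPM in vector and 38269, 42162 and 39884 CPM in shMETTL3, and its log2 fold change of 0.0022 ± 0.0526 did not pass (adjusted p = 0.975, or 0.0013 with library size alone, which gave 0.18). Whether RNA was selected by poly(A) or depleted of ribosomal RNA is not given in the sources used here, and either step sets the level of these rows. The counts of the rRNA rows divided by those of the mRNA rows were 0.281, 0.284 and 0.269 in vector and 0.394, 0.390 and 0.408 in shMETTL3. The ratio of MT-RNR1 to MT-RNR2 counts, looked at after their values were seen, was 0.0544 ± 0.00157 (SD, n = 3) in vector and 0.0855 ± 0.00285 (SD, n = 3) in shMETTL3. These ratios lie within a library and do not depend on the scaling.

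**Figure D2:**
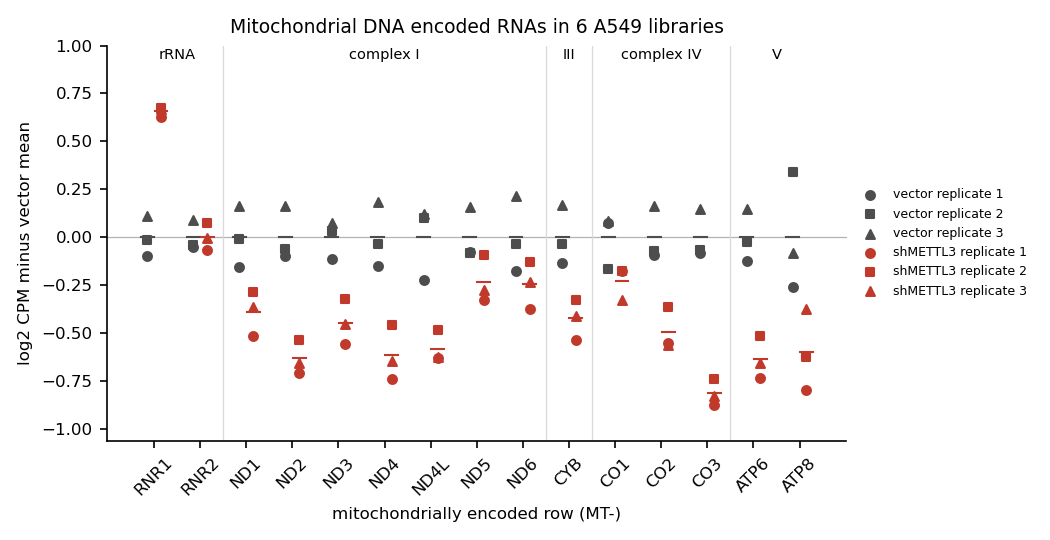
Log2 CPM of the 15 mitochondrially encoded rows (x axis) minus the mean of the 3 vector libraries (y axis), with a point per library and a dash at each group's mean. The 13 mRNAs lie below 0 in shMETTL3, MT-CO3 lowest, while RNR1 lies above 0 and RNR2 at 0.

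Mitochondrial mRNAs took up a large part of each library. The 13 rows held 13.8%, 13.7% and 15.4% of all counts in vector and 11.3%, 12.3% and 11.3% in shMETTL3, and for vector replicate 1 the exact 95% binomial interval was 13.7 to 13.8%, which covers counting error only. The groups were 14.3% ± 0.943 and 11.6% ± 0.559 (SD, n = 3 each), with no overlap. The 2 rRNA rows held 3.97% ± 0.145 of counts in vector and 4.62% ± 0.167 in shMETTL3. The 85 nuclear rows held 1.07% to 1.16% in vector and 0.954%, 0.928% and 0.969% in shMETTL3, again without overlap. Per kilobase of transcript, the median mitochondrial mRNA stood at 9851 CPM in vector and the median nuclear member at 91.9 CPM, with COX6B1 the highest nuclear member at 1320 CPM per kilobase.

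The mitochondrial and nuclear sets differed little in how far they fell. Counts of the 13 mitochondrial mRNAs per count of the nuclear rows were 12.5, 11.8 and 14.4 in vector and 11.9, 13.2 and 11.7 in shMETTL3, so the groups overlapped, and the log2 ratio of their means, -0.075, turned to 0.011 without vector replicate 3. The median log2 fold change was -0.49 over the 13 mitochondrial mRNAs and -0.37 over the 79 nuclear members tested, or -0.32 and -0.20 with library size alone. Without vector replicate 3 these medians were -0.413 and -0.417, so their order turned. Of the nuclear members, 63 were lower, 5 higher and 11 did not pass, so all calls among mitochondrial mRNAs went down while a few nuclear members went up or did not pass. Relative to the vector mean, the median nuclear member stood at -0.38, -0.43 and -0.32 in the shMETTL3 libraries on the log2 scale, and the median mitochondrial mRNA at -0.56, -0.37 and -0.46. The mitochondrial mRNAs also spread more between vector libraries, from -0.13 to 0.15, than the nuclear members, from -0.043 to 0.061.

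**Figure D3:**
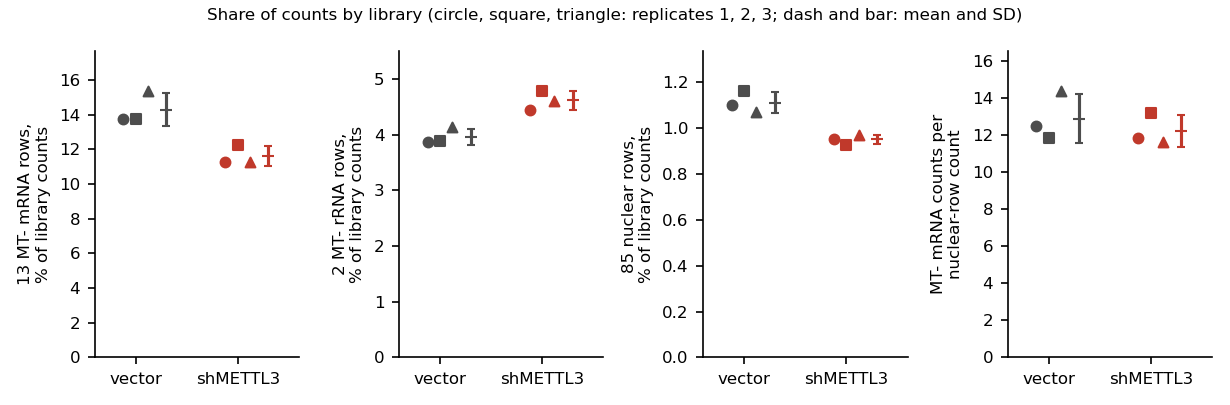
Percent of each library's counts in the 13 mitochondrial mRNA rows, the 2 mitochondrial rRNA rows and the 85 nuclear rows, and mitochondrial mRNA counts per nuclear count (y axes from 0), by group (x axis), with a point per library and the mean and SD beside them. The mRNA and nuclear shares are lower in shMETTL3, the rRNA share is higher, and the last ratio overlaps between groups.

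Reads of mitochondrial RNA can also map to copies of mitochondrial DNA in the nuclear genome. MTCO1P12 held 36032 to 55046 counts per library, and MTCO3P12 held 12415 to 26218. MTCO3P12 fell by 0.74 on the log2 scale (adjusted p = 2.10e-11) and MTCO1P12 by 0.20 (adjusted p = 0.0391), beside -0.82 for MT-CO3 and -0.23 for MT-CO1. Rarer copies lay further from their mitochondrial genes. MTND2P28, with 497 to 730 counts, stood at 0.0078 and did not pass, beside -0.63 for MT-ND2. MTND4P12 and MTATP6P1, with at most 154 and 66 counts, stood at -1.13 each, beside -0.62 for MT-ND4 and -0.64 for MT-ATP6. Of 408 such rows, 8 were tested and 4 were lower. With the copies added to the mRNA rows, the share of counts was 14.7% ± 0.972 in vector and 12.0% ± 0.560 in shMETTL3 (SD, n = 3 each).

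In complex I (NADH dehydrogenase), 25 of 37 nuclear members were lower, 4 higher and 8 did not pass, with a median log2 fold change of -0.30, the most mixed of the complexes. NDUFA3, an accessory subunit, had 47.2, 55.2 and 60.3 CPM in vector and 29.9, 32.6 and 32.1 CPM in shMETTL3, with no overlap and a log2 fold change of -0.78 ± 0.0752 (adjusted p = 6.02e-10). NDUFB6, an accessory subunit of the membrane arm, fell to 59.5% of vector, by 0.75 on the log2 scale. Neither gene's groups overlapped. NDUFB8 showed the largest fall of complex I, -0.85 ± 0.167, from low levels of 4.84 to 7.18 CPM, and other annotated genes overlap 72.0% of its exon bases. Among the catalytic core subunits, NDUFV1 changed by -0.58, NDUFS3 by -0.28, NDUFS8 by -0.27 and NDUFS1 by -0.22, all 4 without overlap. With library size alone the last 3 of these kept their direction and did not pass. The core subunit NDUFS7 had the largest change among the core subunits described, -0.80 ± 0.247 (adjusted p = 0.00571), at 1.89, 3.47 and 2.64 CPM in vector and 1.66, 1.30 and 1.64 CPM in shMETTL3, and without vector replicate 2 it did not pass (-0.57, adjusted p = 0.0683). NDUFV2, another core subunit of low count, stood at 0.06 ± 0.19 (adjusted p = 0.778). NDUFA6, the most abundant nuclear member of complex I without a call, had 68.6, 71.0 and 69.9 CPM in vector and 71.1, 69.4 and 74.4 CPM in shMETTL3, a log2 fold change of 0.04 ± 0.0548 (adjusted p = 0.581). The remaining 7 without a call were NDUFA5, NDUFA7, NDUFA9, NDUFA13, NDUFS4, NDUFV2 and NDUFV3, with adjusted p of 0.163 to 0.947. NDUFA4 bears a complex I name but is now regarded as a complex IV subunit. It changed by -0.39, and without it the median of the nuclear members was unchanged to 2 decimals at -0.37.

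Complex II (succinate dehydrogenase), which also works in the citric acid cycle, moved least. SDHB, its iron-sulfur subunit, had 96.4, 110.5 and 97.8 CPM in vector and 78.9, 86.8 and 78.7 CPM in shMETTL3, a log2 fold change of -0.32 ± 0.0595 (adjusted p = 3.79e-05). SDHC, a membrane anchor, changed by -0.25 and SDHA, the flavoprotein, by -0.21, both without overlap between groups, but on scaling by library size alone neither passed, at -0.073 and -0.037. Other annotated genes cover 69.4% of the exon bases of SDHA. SDHD, the other anchor, overlapped between groups at 59.9, 57.6 and 49.5 CPM against 52.5, 45.3 and 53.4 CPM. Its -0.15 did not pass (adjusted p = 0.0718) and turned to 0.027 with library size alone. With a library left out in turn it ran from -0.23 to -0.074. The median of the 4 was -0.23.

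Of 9 nuclear members of complex III (ubiquinol-cytochrome c reductase), 8 were lower and all 9 separated the groups downward, with a median of -0.37. UQCRC2, a core protein, was at 475, 472 and 459 CPM in vector and 327, 304 and 334 CPM in shMETTL3, a log2 fold change of -0.54 ± 0.0504 (adjusted p = 2.90e-10). Its partner core protein UQCRC1 stood at 92.5% of vector and just missed the threshold, at -0.11 ± 0.0508 (adjusted p = 0.0517, from 0.0288 to 0.274 over the alternatives), with 0.062 under library size alone. UQCRQ, a small subunit, changed by -0.66, UQCR11 by -0.45 and UQCRFS1, the Rieske iron-sulfur protein, by -0.33. UQCRHL is a near copy of UQCRH, and reads shared by the pair are uncertain. CYC1, cytochrome c1 of the same complex, lies outside the symbol patterns and fell to 49.1% of vector, at -1.03 ± 0.0534 (adjusted p = 1.51e-15).

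Complex IV (cytochrome c oxidase) had the lowest median of the nuclear sets, -0.50, with 9 of 10 tested members lower. COX6B2, an isoform of subunit 6B known from testis, fell most of all members. It had 31.1, 35.4 and 33.3 CPM in vector and 8.75, 7.13 and 7.81 CPM in shMETTL3, 23.7% of vector, a log2 fold change of -2.07 ± 0.0912 (adjusted p = 3.61e-17). The gene lies on chromosome 19 at 55860674 to 55866087 of GRCh37 on the minus strand, and another annotated gene on that strand covers 29.9% of its exon bases. Its ubiquitous paralog COX6B1 had 620, 700 and 612 CPM in vector and 450, 452 and 483 CPM in shMETTL3, at -0.48 ± 0.0548. COX5A and COX8A, both nuclear subunits of the enzyme, each changed by -0.61, COX6C by -0.52, COX5B by -0.50, COX7A2 by -0.49, COX7C by -0.45 and COX6A1 by -0.40. The heart and muscle isoform COX6A2 and the testis isoform COX8C were listed at 0 in all 6 libraries, which allows up to 0.150 to 0.189 CPM at 3 counts per library. COX7A1 and COX7B2 lay at or under 0.368 CPM and were not tested. COX7B, by contrast, rose from 159, 176 and 160 CPM to 225, 221 and 215 CPM, at 0.42 ± 0.0524 (adjusted p = 8.91e-08), with no overlap.

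In complex V, 18 of 19 tested nuclear members were lower, none was higher, and the median was -0.46. ATP5F1D, the delta subunit of the rotor stalk, had 36.3, 47.0 and 40.9 CPM in vector and 20.5, 21.0 and 23.9 CPM in shMETTL3, a log2 fold change of -0.93 ± 0.0847 (adjusted p = 2.13e-10). ATP5F1B, the catalytic beta subunit and the nuclear member with the most counts, went from 1741, 1812 and 1750 CPM to 1149, 1102 and 1104 CPM, at -0.66 ± 0.0484. The alpha subunit ATP5F1A fell less, at -0.33, and the gamma subunit ATP5F1C least of the members called, at -0.14. The 3 genes that encode the same mature subunit c of the rotor ring, ATP5MC1, ATP5MC2 and ATP5MC3, all fell, by 0.73, 0.50 and 0.44 on the log2 scale. ATP5IF1, the inhibitor that blocks the enzyme when it would run backwards, changed by -0.67 and was at 62.9% of vector. ATP5S, which is no subunit of the enzyme despite its name, stood at 19.2 ± 1.02 CPM in vector and 18.2 ± 0.188 CPM in shMETTL3 (SD, n = 3 each), with a log2 fold change of -0.07 ± 0.0808 that did not pass (adjusted p = 0.425) and was 0.10 under library size alone.

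The complexes therefore ran in the order IV, V, III, I and II by the median of their nuclear members, from -0.50 to -0.23. With the mitochondrial mRNAs included, complex V stood at -0.50 and complex IV at -0.49, so their places turned. With library size alone the order was the same but the medians lay nearer 0, at -0.32 for IV, -0.29 for V, -0.20 for III, -0.12 for I and -0.055 for II. In each of the 3 shMETTL3 libraries complex IV had the lowest nuclear median, between -0.54 and -0.47, and complexes I and II the highest pair, between -0.34 and -0.22. Complexes IV and V differed by less than the spread between replicates, and the order of I and II turned in shMETTL3 replicate 3. Differences between complexes were not tested, since they rest on members that share libraries.

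The 6 members that rose were MT-RNR1, COX7B and 4 complex I subunits. NDUFC2 had 12.8, 16.3 and 12.4 CPM in vector and 20.04, 16.9 and 19.7 CPM in shMETTL3, at 0.44 ± 0.101 (adjusted p = 0.00038), and shares exon bases with the read-through gene NDUFC2-KCTD14 on its strand. NDUFA1 had 91.5, 104.6 and 79.5 CPM against 101.2, 104.1 and 119.9 CPM, so its groups overlapped, and its 0.24 ± 0.0732 lost the call without vector replicate 3 (0.14) and without shMETTL3 replicate 3 (0.16), and by DESeq2 (0.23, adjusted p = 0.123). NDUFA8 changed by 0.16 and NDUFB11 by 0.15, both without overlap, and NDUFA8 missed the threshold without vector replicate 2 and without shMETTL3 replicates 1 or 3, at 0.14 to 0.15. NDUFB11 missed it by DESeq2 (0.15, adjusted p = 0.07), without the filter on low counts (0.14), without vector replicates 1 (0.0876) or 2 (0.15), and without shMETTL3 replicates 2 or 3 (0.14 each). COX7B, NDUFA1 and NDUFB11 are the 3 members on chromosome X, and all 3 passed upward, of which COX7B alone kept its call whichever library was left out. Of the 452 genes tested on that chromosome, 82.3% were higher in shMETTL3, with a median log2 fold change of 0.74, so a rise there was the rule. Of the 76 tested nuclear members on numbered chromosomes, 2 were higher and 63 lower, with a median of -0.39, beside 33.5% higher and 34.3% lower of all genes on those chromosomes and a median of -0.0057.

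Several nuclear members shared exon bases with other annotated genes. At 50% or more of their exon bases, these were 10 rows, of which 9 were tested, 5 were lower and 4 did not pass, with a median of -0.21, against 58 lower, 5 higher and 7 not passing among the other 70. SDHA, with 69.4% of its bases shared, was abundant at 264 ± 11.2 CPM in vector, and others were low: NDUFA7 with 77.9% of its bases shared had 0.436 ± 0.255 CPM in vector, NDUFA13 with 83.9% had 0.869 ± 0.262 CPM and NDUFV2 with 90.0% had 2.89 ± 0.379 CPM (SD, n = 3 each). The strand setting and the gene annotation of the counting are not given in the sources used here, so the levels of these rows are uncertain.

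The nuclear members had short transcripts. Their median length was 758 bases against 3223 bases for the tested genes with an annotated transcript, and the m6A consensus GGACT, searched in these letters on the transcript strand, was missing from 36.7% of them and from 10.4% of all. The 29 members without GGACT had a median log2 fold change of -0.45, with 25 lower and 1 higher, and the 50 with it had -0.34, with 38 lower and 4 higher. The same split was not made over all genes tested, of which 32.9% were lower and 33.7% higher. Whether the difference goes with the motif or with transcript length was not tested. A match is no measured methylation site. Over the 79 members, Spearman's rho of the log2 fold change was 0.19 with transcript length, -0.30 with GC content and 0.03 with average log2 CPM, given as descriptions because the members share libraries.

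Many respiratory genes share motifs in their promoters. RefSeq windows of GRCh38.p14, from 250 bases before to 50 bases after a start, matched 64 of the 79 tested nuclear members, with 76 windows. The 3 motifs searched on both strands were GCGCATGCG for NRF1, CCGGAAG for ETS factors such as GABP, and AAGATGGC for YY1, the last 2 of which can share the letters AAG. They were found in 14.5%, 27.6% and 17.1% of the members' windows, against 1.92%, 10.3% and 2.89% of all 35093 windows and 2.99%, 15.9% and 4.53% of the windows of tested genes. Of the 11 members with the NRF1 motif 8 were lower and 1 higher, with a median log2 fold change of -0.31 against -0.39 for the 53 without it. For the ETS motif the medians were -0.37 with and -0.40 without it, and for YY1 -0.31 and -0.39, so the medians with and without a motif lay close together. The sequences below, each 5′ to 3′ on the gene's strand and ending before or at the base before the start, show a falling member of complexes III, IV and V and a rising member of complex I, with the motifs in capitals. The falling ones were picked for the most kinds of motif before the start, among called members outside chromosomes 8 and X, so they are not typical. Of the 64 members, 36 held any of the motifs and 1 held all 3. Of the rising members on chromosome X, COX7B and NDUFB11 held none before the start. The ATP5PF stretch (chr21:25735055-25735204, minus strand) holds all 3 motifs, COX6A1 (chr12:120437864-120438112, plus strand) holds NRF1 and ETS, and UQCRQ (chr5:132866558-132866624, plus strand) and NDUFA1 (chrX:119871755-119871821, plus strand) hold ETS.
ATP5PF: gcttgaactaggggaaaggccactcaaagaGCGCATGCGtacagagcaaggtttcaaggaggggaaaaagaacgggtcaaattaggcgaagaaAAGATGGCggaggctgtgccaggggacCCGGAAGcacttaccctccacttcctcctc
COX6A1: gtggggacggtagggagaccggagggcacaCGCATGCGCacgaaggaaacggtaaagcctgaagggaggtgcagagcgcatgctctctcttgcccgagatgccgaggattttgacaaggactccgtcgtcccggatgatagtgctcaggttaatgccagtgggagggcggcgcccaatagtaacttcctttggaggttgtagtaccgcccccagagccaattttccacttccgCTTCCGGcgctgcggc
UQCRQ: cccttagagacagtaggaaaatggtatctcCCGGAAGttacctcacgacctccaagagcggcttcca
NDUFA1: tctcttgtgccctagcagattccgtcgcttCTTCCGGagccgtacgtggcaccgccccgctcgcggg
ATP5PF changed by -0.31, COX6A1 by -0.40, UQCRQ by -0.66 and NDUFA1 by 0.24.

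Genes that assemble, transcribe or regulate the chain were called in both directions. Their counts stand against 32.9% lower and 33.7% higher over all genes tested, and no difference between a list and that background was tested. Of the subunits outside the symbol patterns, 4 of 5 tested were lower, namely CYC1, the acyl carrier protein NDUFAB1 (-0.77), COX4I1 (-0.46) and COX7A2L (-0.29), while cytochrome c itself (CYCS) stood at 0.01 (adjusted p = 0.907), and the median of the 5 was -0.46. Complex I assembly factors had 5 lower and 2 higher of 14, from FOXRED1 at -0.98 to NDUFAF1 at 0.61. Those of complexes II and III had 4 lower and 1 higher of 10, from SDHAF1 at -0.71 to UQCC1 at 0.30. Complex IV factors had 4 lower and 3 higher of 21, and among the higher was SCO1, a copper chaperone, at 0.39. PET117, the lowest at -1.31, had under 1 CPM in each group's mean, ran from -2.07 without shMETTL3 replicate 1 to -0.97 without shMETTL3 replicate 2, and did not pass without shMETTL3 replicate 2 or 3. Of 3 complex V factors ATPAF2 was lower at -0.28 and TMEM70 higher at 0.25. The medians of these assembly lists ran from -0.11 to -0.01, against -0.37 for the nuclear members.

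**Figure D4:**
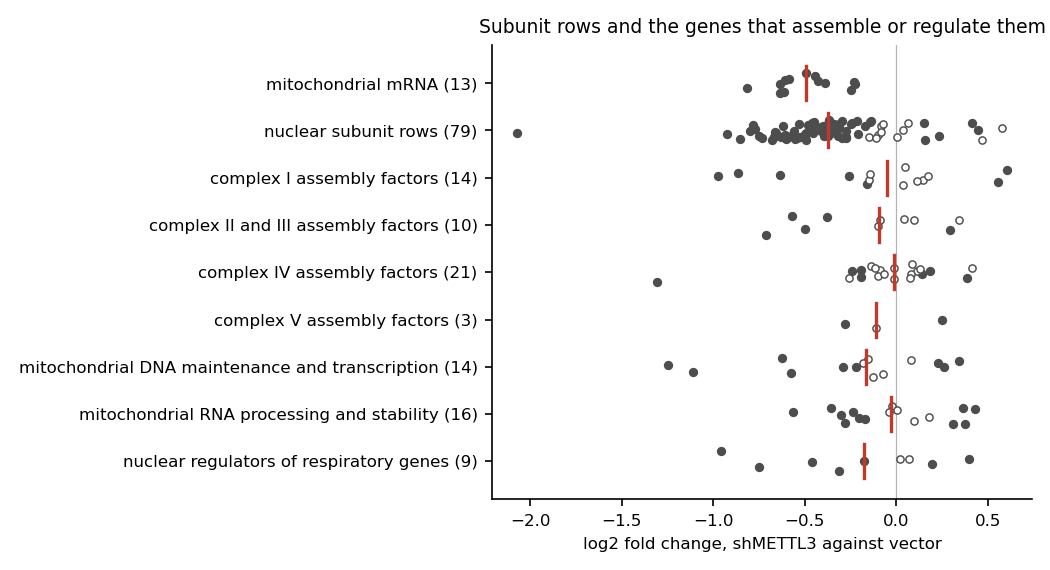
Log2 fold change of shMETTL3 against vector (x axis) for the tested genes of 9 groups, namely the mitochondrial mRNAs, the nuclear subunit rows, 4 lists of assembly factors and 3 lists of mitochondrial and nuclear regulators (y axis, number tested in brackets). Filled points passed the adjusted p of 0.05, open points did not, and the line is the median. Medians of the mitochondrial and nuclear subunit rows, at -0.49 and -0.37, lie left of those of the 7 lists plotted under them, between -0.17 and -0.01.

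Among 14 genes that maintain or transcribe mitochondrial DNA, 6 were lower and 3 higher, again beside 32.9% and 33.7% of all genes. POLRMT, the mitochondrial RNA polymerase, had 104, 105 and 110 CPM in vector and 48.1, 49.4 and 49.8 CPM in shMETTL3, a log2 fold change of -1.11 ± 0.0548 (adjusted p = 4.39e-16). TFB1M, the methyltransferase that modifies the small mitochondrial rRNA, fell to 42.1% of vector at -1.25 ± 0.0921 (adjusted p = 2.81e-12). TFAM, which packages mitochondrial DNA and activates its promoters, stood at -0.13 and did not pass (adjusted p = 0.0839), and TFB2M, which opens the promoters, rose by 0.23. Of 16 genes of mitochondrial RNA processing and stability, 7 were lower and 4 higher. SLIRP and LRPPRC, which form the complex that stabilizes mitochondrial mRNAs, changed by -0.56 and -0.21, and FASTKD3 rose by 0.43. Of 9 nuclear regulators, 5 were lower and 2 higher. The coactivators PPARGC1B and PPARGC1A changed by -0.96 and -0.46 and the nuclear receptor ESRRA by -0.75, whereas GABPA rose by 0.40 and NRF1 stood at 0.02 (adjusted p = 0.831).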

How the data were processed

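Per the study's methods and the submitters' processing notes, the authors mapped RNA-seq reads of 3 vector and 3 shMETTL3 libraries to hg19 and counted them per gene. The notes list cutadapt 3.0, HISAT2 2.2.1, SAMtools 1.13, HTSeq 0.13.5 and DESeq2, and the paper names other versions of HISAT2 and HTSeq. The deposited counts are whole numbers, not normalized. Counts were scaled by TMM, filtered by filterByExpr and tested in edgeR 4.0.16 (R 4.3.3, glmQLFit and glmQLFTest, group only), with Benjamini-Hochberg adjustment over 15125 genes. DESeq2 1.42.0 and limma 3.58.1 (voom) were alternatives, all tested on simulated counts. Transcript lengths and overlaps came from GENCODE for GRCh37, with 97 members matched by current and 3 by older symbols. Rows named as dates (27) stayed in the test. The genes named are METTL3, all MT- rows, complex II, the 3 largest rises and falls called per complex at an average log2 CPM of at least 2, paralogs, the extremes of each list and the most abundant members without a call, plus members named for their role after values were seen. Members and lists were chosen with earlier results of these data known. The replicate numbers were not used to pair the libraries in the main fit. The values of 1 nuclear member are not reported here singly.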

Additional observations from a re-analysis of the deposited data

How the results depend on the processing

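The 58 genes followed one by one gave 869 values under the alternatives, of which 826 kept direction and side of the threshold, 20 no longer passed, 13 newly passed and 10 turned. With library size alone the median log2 fold change was -0.32 for mitochondrial mRNAs, -0.20 for nuclear members, and -0.12, -0.055, -0.20, -0.32 and -0.29 for nuclear complexes I to V, while SDHD (0.027), UQCRC1 (0.062) and ATP5S (0.0995) turned. Upper-quartile scaling gave -0.21 for complex II. MT-RNR2 turned to -0.0014 with RLE and with DESeq2, -0.0019 with TMM without the MT- rows and -0.0105 without the filter, and to -0.0295, -0.0254 and -0.0346 without vector replicates 1 and 2 and shMETTL3 replicate 2, with a range of -0.0346 to 0.0435 over the libraries left out. With a minimum of 0.5 on the log2 scale, 31 members were called, 30 lower and 1 higher. The share of all genes at that minimum is not given, so this split has no background to be read against. With rRNA added, the log2 ratio of the mitochondrial share was -0.17 instead of -0.30. Leaving out a library in turn gave 78 to 84 members called, 3 to 6 higher and 74 to 79 lower, medians of -0.56 to -0.41 for mitochondrial mRNAs and -0.42 to -0.34 for nuclear members, of -0.36 to -0.27, -0.24 to -0.23, -0.41 to -0.34, -0.53 to -0.45 and -0.50 to -0.39 for nuclear complexes I to V, a log2 share ratio of -0.34 to -0.24, and a log2 ratio of mitochondrial to nuclear counts of -0.13 to 0.011, which turned without vector replicate 3. The cause of these changes was not tested. Same-numbered libraries correlated at 0.0516, -0.00663 and 0.0333, and the other pairs across groups at -0.0606 to 0.0265. These small values cannot show whether same-numbered libraries were prepared together. With a replicate block 83 members were called, 6 higher and 77 lower, and 10111 genes in all. Depth limits only the members with a few counts: 3 counts stand at 0.150 to 0.189 CPM.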

Other observations

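Of the 22 mitochondrial tRNA rows, looked at after the values above were seen, 1 had enough counts to test. This was MT-TP, the row of the tRNA for proline, with 160, 182 and 192 CPM in vector and 102, 114 and 117 CPM in shMETTL3. Its log2 fold change was -0.68 ± 0.0626 (SE, adjusted p = 2.56e-10, edgeR's quasi-likelihood test), lower in 3 of 3 libraries. The MT-TP row held 1861 to 3138 counts per library, while the other 21 rows held at most 3 in any library. Whether the reads of MT-TP came from the tRNA itself or from longer RNA that covers its gene was not tested.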
